A study of Mus musculus with 12 samples.

Results

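The genes described here are the major histocompatibility complex (MHC) genes of the mouse, named with the prefix H2-, and 7 genes that act with their products. They were chosen by symbol: every gene whose symbol starts with H2-, except 4 symbols marked as pseudogenes by -ps, and B2m, Tap1, Tap2, Tapbp, Nlrc5, Cd74 and Ciita. The rule finds 48 of the 55450 genes in the table and uses no measured value. Of these, 34 belong to class I (29 heavy chain symbols and the partners B2m, Tap1, Tap2, Tapbp and Nlrc5) and 11 to class II (9 chains, Cd74 and Ciita). The other 3 symbols are H2-Ke6, H2-Pa and H2-Pb. H2-Ke6 lies in the complex but encodes an enzyme, also called Hsd17b8, and not an MHC molecule, so it is kept apart.

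RNA was sequenced from donor cells sorted as lineage-negative and Kit-positive (Lin- ckit+, a mixture of stem and progenitor cells) from the marrow of mice that had received a competitive transplant, in which donor cells share the host with competitor cells. There were 3 libraries of each of 4 donor genotypes: WT, Tet2KO (Tet2 KO), Id1KO (Id1 KO) and dKO (Tet2 KO + Id1KO). Tet2 encodes an enzyme that oxidises methylcytosine in DNA, and Id1 an inhibitor of basic helix-loop-helix transcription factors. The design crosses both knockouts, so each label can be compared with and without the other label. The labels do not name the alleles, the strain, the ages, any deleter strain or the number of mice behind a library. Each genotype carries 1 sample number in the titles, with suffixes whose meaning is not stated, so its 3 libraries may be repeats of 1 cell sample. The p-values therefore measure only the spread between these libraries, which may be technical.

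Libraries held 15706407 to 19959183 counts, and levels are given as CPM, counts relative to the scaled library size. The targeted genes do not check the labels. Tet2 stood at 99.3 ± 2.2 CPM (SD, n = 3 in each genotype) in libraries labelled WT, 92.0 ± 1.5 in Id1KO, 129.9 ± 2.5 in Tet2KO and 118.1 ± 3.1 in dKO, so it was higher where it is labelled as deleted. Id1 stood at 1.47 ± 0.27 CPM in libraries labelled WT, and at 3.86 ± 0.42 in Tet2KO, 3.96 ± 0.34 in Id1KO and 3.93 ± 0.50 in dKO. Id1 thus set the WT libraries apart and did not follow the Id1 label. Reads outside a deleted part could give such values, and that was not tested. Every direction below rests on the labels. Kit, which the sort selected, was present in all libraries, at 337.7 CPM in WT, 365.0 with the Tet2KO label, 315.2 with Id1KO and 320.3 with dKO. Differences were tested with edgeR's quasi-likelihood model over 14346 genes, and a gene is called higher or lower where the Benjamini-Hochberg adjusted p is under 0.05.

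MHC class I molecules sit on nearly all nucleated cells and show peptides from the cell's own proteins to CD8+ T cells and natural killer cells. A heavy chain pairs with beta-2 microglobulin (B2m), and peptides cut by the proteasome are pumped into the endoplasmic reticulum by Tap1 with Tap2 and loaded with the help of tapasin (Tapbp). Class II molecules pair an alpha with a beta chain, travel with the invariant chain (Cd74), receive peptides with the help of H2-DM, which H2-O restrains, and are typical of dendritic cells, B cells and macrophages. Nlrc5 and Ciita are coactivators of class I and of class II genes, and neither binds DNA by itself: both act through factors bound to the X and Y boxes of MHC promoters.

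Those boxes can be seen in the promoters of the genes measured here. RefSeq promoters (250 bases before to 50 after the start, GRCm38.p6) were at hand for 34 of the 48 genes and 20 of those tested. The core of the X2 box, TGACG on the gene's strand, stood 24 to 26 bases before the core of the Y box, ATTGG, in 6 of those 20, namely B2m, H2-Aa, H2-D1, H2-K1, H2-M3 and H2-Q7. The same arrangement was found in 34 of all 32851 promoters (0.103%), a distance range that was set after the sequences were seen. The 4 stretches that no annotated exon covers are shown because they set the class I genes H2-K1, H2-Q7 and B2m beside a class II gene. Capitals mark TGACG and ATTGG, each sequence runs 5′ to 3′ on the gene's strand, and the positions are chr17:34000348-34000400 (minus strand) for H2-K1, chr17:35439079-35439131 (plus) for H2-Q7, chr2:122147597-122147650 (plus) for B2m and chr17:34287855-34287909 (minus) for H2-Aa.
H2-K1: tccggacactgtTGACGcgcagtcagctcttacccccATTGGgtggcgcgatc
H2-Q7: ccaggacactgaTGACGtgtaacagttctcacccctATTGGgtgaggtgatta
B2m: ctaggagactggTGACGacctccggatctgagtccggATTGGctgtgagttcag
H2-Aa: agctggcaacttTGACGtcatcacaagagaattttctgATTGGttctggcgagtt

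Alone, each box is common. ATTGG on either strand was in 19 of the 20 promoters of tested genes and in 33.8% of all promoters, and TGACG on either strand was in 17.8% of all promoters. A match describes the letters only and is not a measured binding site.

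Of the 48 genes, 44 lie on chromosome 17. The others are B2m on chromosome 2, Nlrc5 on chromosome 8, Ciita on chromosome 16 and Cd74 on chromosome 18. After a filter on low counts 29 could be tested: 18 of class I (13 heavy chains and 5 partners), 10 of class II (8 chains and 2 partners) and H2-Ke6. The 19 untested genes never exceeded 6 counts in a library, and 13 of them were at 0 in all 12. They are 16 class I heavy chain symbols, most from the H2-M and H2-Q clusters, the class II chain H2-Eb2, and H2-Pa and H2-Pb. At this depth these transcripts could not be followed.

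Levels were compared between genes as CPM per kilobase of exon, averaged over the 12 libraries. B2m was highest at 926.2, followed by the classical heavy chains H2-D1 at 271.1 and H2-K1 at 261.3. Tapbp came next at 45.2. The transporter subunits Tap2 at 38.7 and Tap1 at 31.7 were interspersed with the nonclassical heavy chains H2-Q6 at 39.3, H2-T23 at 32.6 and H2-Q4 at 31.9, and H2-Q7 followed at 23.4. Class II was lower. Cd74 reached 23.1 CPM per kilobase, H2-DMb1 17.8 and H2-DMa 15.5, above the peptide-presenting chains H2-Ab1 at 12.3, H2-Aa at 6.67 and H2-Eb1 at 6.37. The restraining chains H2-Oa and H2-Ob stood at 4.03 and 2.39, and the coactivator Ciita at 0.566, next to H2-Q10 at 0.556, the lowest of the tested genes.

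**Figure D1:**
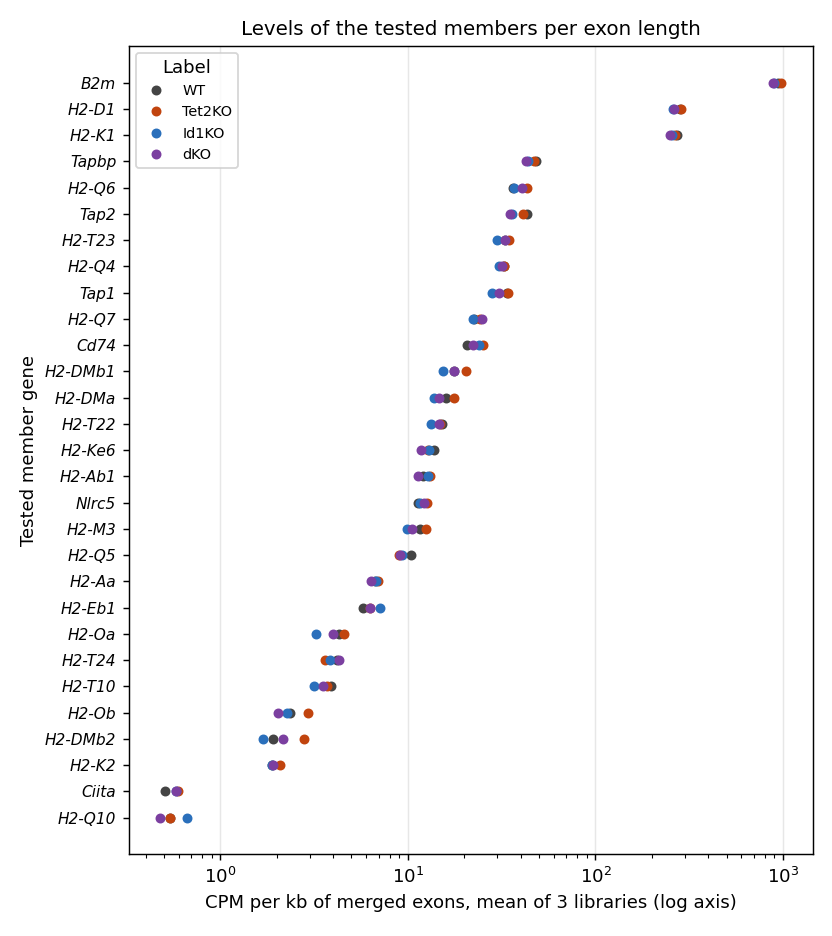
Levels of the 29 tested genes, in CPM per kilobase of exon on a log axis, by genotype. B2m, H2-D1 and H2-K1 stand above all others at 926.2, 271.1 and 261.3 over the 12 libraries, and Ciita and H2-Q10 lie at the bottom.

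Differences between genotypes were small in size. The largest log2 fold change of any tested gene in any comparison that passed the test was 0.53 in size. The described genes gave 51 calls over the 6 comparisons, of which 26 were kept in each of the 12 fits that left out 1 library. Of all 14346 genes, 32.8% were called in either direction in Tet2KO against WT, 15% in Id1KO against WT, 19.2% in dKO against WT, 26.4% in dKO against Tet2KO, 19.3% in dKO against Id1KO and 14.5% in the interaction. Shares over all genes are for edgeR's adjusted p under 0.05 throughout. They were not counted for DESeq2 or for an unadjusted p. The calls that were not kept when 1 library was left out are given with the libraries that ended them. Calls that DESeq2 did not make are counted, but only some are named. In bulk RNA, fewer cells of a type and less RNA per cell cannot be told apart, here or in any result that follows.

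**Figure D2:**
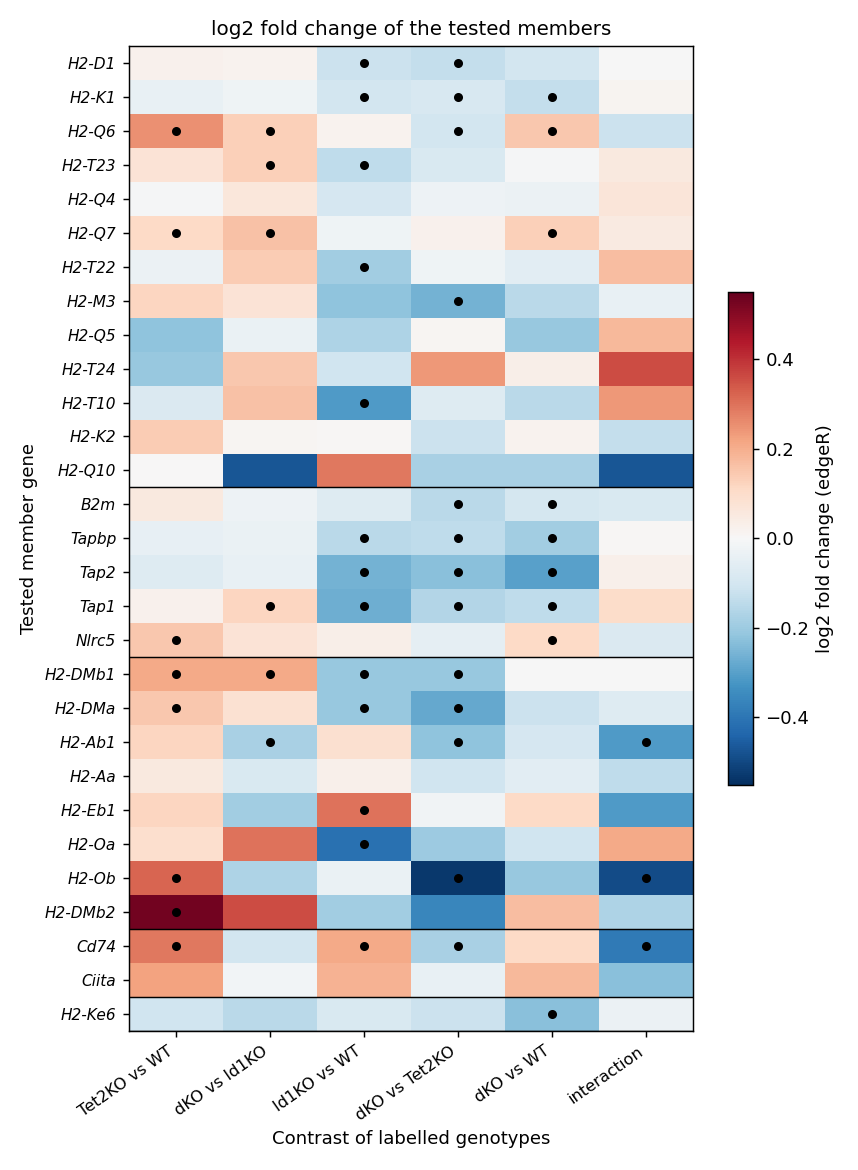
Log2 fold changes of the tested genes (one per line) in the 6 comparisons (columns), coloured from lower to higher, with a dot where the adjusted p is under 0.05. In the comparisons of Id1KO with WT and of dKO with Tet2KO the dots on class I genes are all on the lower side, and the class II genes carry 5 dots on the higher side in Tet2KO against WT.

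The peptide-loading genes were lower in both sets of libraries that carry the Id1KO label. Without the Tet2 label, 8 of 18 class I genes were lower and 0 higher in libraries labelled Id1KO than in those labelled WT, where 7.77% of all genes tested were lower and 7.26% higher. Their median log2 fold change was -0.12, beside -0.0078 over all genes. DESeq2 called 6 lower and 0 higher, and at an unadjusted p under 0.05 edgeR had 10 lower and 0 higher. Within Tet2KO, the dKO libraries again had 8 of 18 lower and 0 higher, where 13.4% of all genes were lower and 13.1% higher, with a median of -0.092. DESeq2 again called 6 lower and 0 higher, and at an unadjusted p under 0.05 there were 8 lower and 1 higher. These comparisons share no library. The 5 genes called lower in both, 62.5% of each list, were Tap1, Tap2, Tapbp, H2-K1 and H2-D1. How many of all genes were called lower in both was not counted. Leaving out a library moved the count of 8 to as few as 4, in the first comparison without WT replicate 2 or 3 and in the second without Tet2KO replicate 1 or dKO replicate 2.

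Tap2 (chr17:34203527-34216321, plus strand), a subunit of the peptide pump, had 160.1, 158.9 and 168.1 CPM in the WT libraries and 157.2, 155.2 and 152.0 in Tet2KO. It had 136.8, 136.7 and 133.5 CPM in Id1KO and 136.5, 123.4 and 135.5 in dKO. All 6 libraries labelled Id1KO or dKO lay below all 6 labelled WT or Tet2KO. Tap2 fell by 0.26 ± 0.035 log2 units (SE) in Id1KO against WT (adjusted p = 3.14e-05), by 0.23 ± 0.036 in dKO against Tet2KO (adjusted p = 6.76e-05) and by 0.30 ± 0.035 in dKO against WT (adjusted p = 3.34e-06).

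Tap1 (chr17:34187553-34197225, plus strand), its partner in the pump, had 179.6, 182.4 and 192.9 CPM in WT, 193.6, 183.6 and 186.4 under the Tet2KO label, 151.3, 161.0 and 149.2 under Id1KO and 171.9, 158.0 and 173.1 under dKO. The Id1KO and dKO libraries were again all below the other 6. Tap1 fell by 16.8% in Id1KO against WT (log2 -0.27 ± 0.038, adjusted p = 7.3e-05) and by 10.8% in dKO against Tet2KO (log2 -0.16 ± 0.039, adjusted p = 0.00344). Between the genotypes with the Id1 label it was 0.12 ± 0.039 higher on the log2 scale in dKO (adjusted p = 0.0301), although the libraries overlapped, and this call was lost without Id1KO replicate 1 or 3 or dKO replicate 1 or 3 (adjusted p 0.112 to 0.141). The fall in dKO against WT, -0.14 on the log2 scale (adjusted p = 0.0125), was lost without WT replicate 3 or dKO replicate 2 (adjusted p 0.0931 and 0.0817). Exons of Tap1 overlap those of Psmb9 on the opposite strand, and those of Tap2 overlap 2 gene models on the opposite strand.

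Tapbp (chr17:33915899-33929292, plus strand), tapasin, which bridges the pump and the empty heavy chain, had 172.2, 180.9 and 172.5 CPM in WT and 175.7, 168.8 and 165.0 in Tet2KO. It had 157.8, 155.7 and 160.0 CPM in Id1KO and 158.2, 147.0 and 156.0 in dKO, below the other 6 libraries. It fell by 0.15 ± 0.032 log2 units in Id1KO against WT (adjusted p = 0.0032) and by 0.14 ± 0.033 in dKO against Tet2KO (adjusted p = 0.00312). Its exons overlap those of Zbtb22 on the same strand and those of Gm19412 on the opposite strand.

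The sum of Tap1 and Tap2 was 347.3 ± 12 CPM in WT, 342.7 ± 7.0 under the Tet2KO label, 289.5 ± 7.6 under Id1KO and 299.5 ± 16 under dKO. The 3 loading genes thus separated the libraries by the Id1 label, with or without the Tet2 label. So did H2-K1 and B2m, described below, and how many of all genes did so was not counted. The sum of 10 genes typical of Kit+ progenitors, mostly Mpo, did the same. It was 11998.2 to 12052.8 CPM in WT and 13181.0 to 13431.4 in Tet2KO libraries, and 10067.0 to 10816.2 in Id1KO and 9996.6 to 10775.4 in dKO libraries. Taken singly, Cd34, Kit and Mpo separated the libraries in this way, and Cebpa, Flt3, Gata1, Gata2, Myb, Sox4 and Spi1 did not. Of the 10, 7 were lower and 1 (Gata2) higher in Id1KO against WT, where 7.77% of all genes were lower and 7.26% higher. In dKO against Tet2KO 7 were lower and 1 (Gata1) higher, where the shares were 13.4% and 13.1%. The 7 were Cd34, Cebpa, Flt3, Kit, Mpo, Sox4 and Spi1 in both. Kit itself fell by 0.10 log2 units in the first comparison (adjusted p = 0.0132) and by 0.19 in the second (adjusted p = 2.52e-05). The part of the progenitor mixture in the loading genes was not tested. The interaction term, which asks whether the difference by the Id1 label depends on the Tet2 label, was called for 0 of 18 class I genes by edgeR and by DESeq2, where 7.46% of all genes were called higher and 7.03% lower. At an unadjusted p under 0.05 edgeR had 3 higher and 2 lower, and a missed threshold does not show that this difference was equal with and without the Tet2 label.

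**Figure D3:**
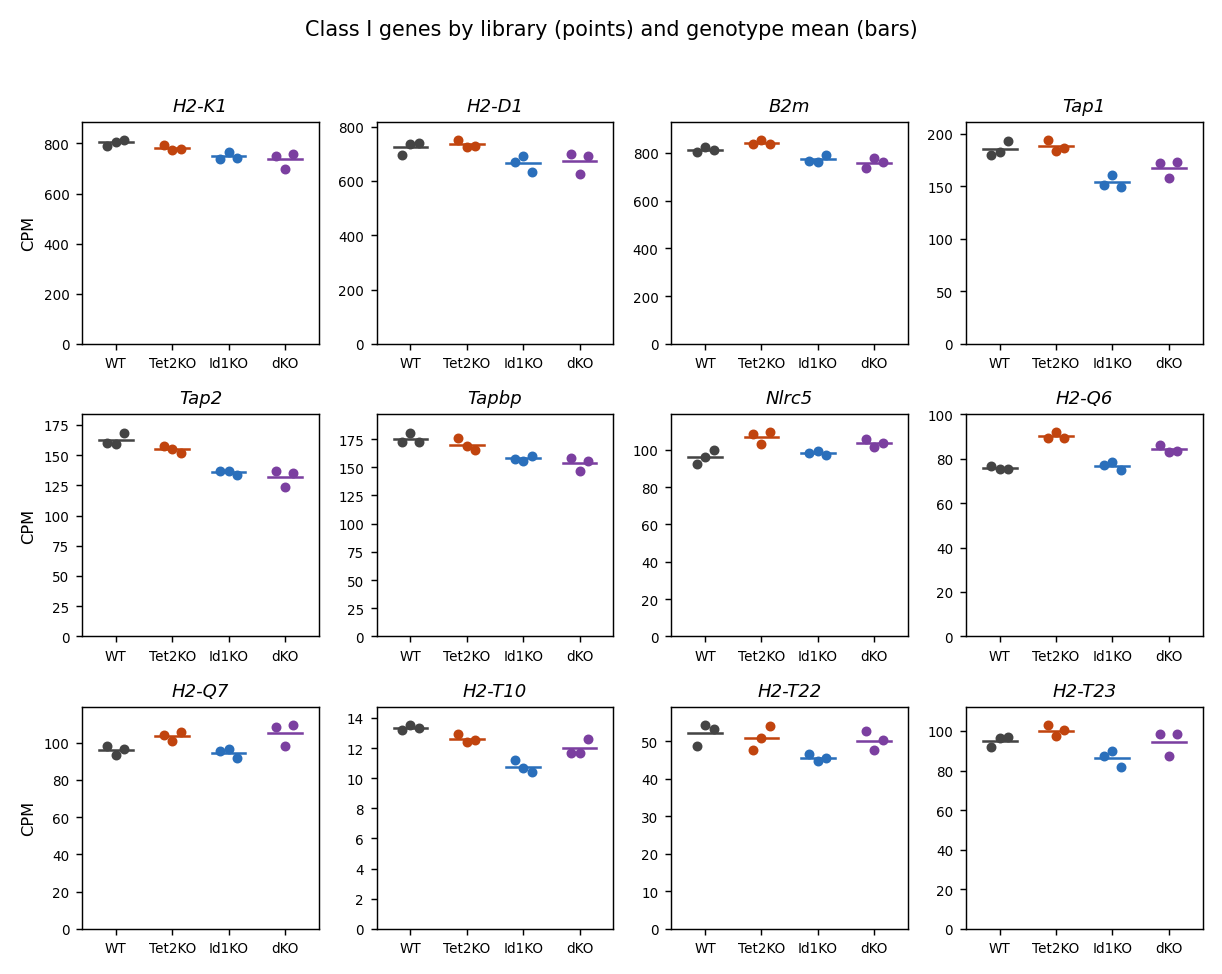
CPM of class I genes in each library, by genotype, with a bar at each mean and points for the 3 libraries. Tap1, Tap2, Tapbp, H2-K1 and B2m lie lower in all 6 Id1KO and dKO libraries than in all 6 WT and Tet2KO libraries. H2-Q6 lies higher in the Tet2KO and dKO libraries than in the WT and Id1KO libraries.

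The classical heavy chains differed by smaller steps. H2-K1 (chr17:33996017-34000347, minus strand) had 791.0, 805.5 and 815.3 CPM in WT, 793.5, 773.7 and 778.1 under the Tet2KO label, 738.2, 765.3 and 742.0 under Id1KO and 751.0, 699.4 and 759.3 under dKO. The dKO libraries were below all Tet2KO libraries, and the Id1KO libraries below all WT libraries. H2-K1 fell by 6.89% in Id1KO against WT (adjusted p = 0.0233) and by 5.78% in dKO against Tet2KO (adjusted p = 0.0396). The first call was lost without WT replicate 2 or 3 or Id1KO replicate 1 or 3 (adjusted p 0.068 to 0.113), and the second without any 1 Tet2KO library or dKO replicate 2 (adjusted p 0.0597 to 0.157). Against WT, the fall in dKO of 0.13 ± 0.03 on the log2 scale (adjusted p = 0.00493) was kept in all 12 fits.

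H2-D1 (chr17:35262730-35267499, plus strand) had 695.6, 736.5 and 738.5 CPM in WT, 751.7, 725.0 and 727.0 under the Tet2KO label, 668.7, 691.6 and 634.6 under Id1KO and 699.8, 626.8 and 693.6 under dKO. The lowest of the 12 was dKO replicate 2, which was also the lowest for H2-K1, Tap2 and Tapbp. H2-D1 fell by 8.09% in Id1KO against WT (adjusted p = 0.0386) and by 8.33% in dKO against Tet2KO (adjusted p = 0.0217). Both calls depended on single libraries: the first was lost in 6 of 12 fits, without WT or Tet2KO replicate 2 or 3 or Id1KO replicate 1 or 3 (adjusted p 0.0582 to 0.202), and the second without Tet2KO replicate 1 or dKO replicate 2 (adjusted p 0.0896 and 0.107). H2-K1 and H2-D1 share a stretch of 251 bases at 95.2% identity, so reads may be split between them, and their sum stood at 1527.5 ± 36 CPM in WT, 1516.3 ± 25 under the Tet2KO label, 1413.5 ± 41 under Id1KO and 1410.0 ± 73 under dKO. For that sum, too, the Id1KO libraries lay below the WT libraries and the dKO libraries below those of Tet2KO.

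B2m (chr2:122147686-122153083, plus strand), the light chain common to all class I molecules, had 801.4, 823.1 and 810.5 CPM in WT, 834.8, 855.6 and 838.8 under the Tet2KO label, 767.0, 762.2 and 789.6 under Id1KO and 736.1, 777.5 and 761.3 under dKO. The Tet2KO libraries were the highest and the dKO and Id1KO libraries the lowest, with no overlap of either with WT. B2m fell by 0.15 ± 0.027 on the log2 scale in dKO against Tet2KO (adjusted p = 0.000254), a call kept in all 12 fits. Its fall in dKO against WT, by 6.57% (adjusted p = 0.0128), was lost without WT replicate 2 or dKO replicate 1 (adjusted p 0.0638 and 0.0816).

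H2-T10 and H2-T22 are nonclassical heavy chain genes whose products gamma-delta T cells can recognise. The annotation lists H2-T10, like H2-Q5, as a polymorphic pseudogene, one whose coding state differs between strains. H2-T10 had 13.2, 13.5 and 13.3 CPM in WT and 11.2, 10.7 and 10.4 in Id1KO, without overlap. It fell by 19.2% (log2 -0.31 ± 0.072, adjusted p = 0.0059), and DESeq2 did not call it (adjusted p = 0.0695). H2-T22 fell by 12.6% in the same comparison (adjusted p = 0.0156), a call lost without WT replicate 2 or 3 or Id1KO replicate 2 (adjusted p 0.0575 to 0.0841). They share 1703 bases at 96.5% identity, so reads may be split between them. Their sum was 65.4 ± 3.1 CPM in WT and 56.3 ± 1.2 in Id1KO, again without overlap. Exons of H2-T10 overlap those of BC023719, and exons of H2-T22 those of A930015D03Rik, both on the opposite strand.

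H2-T23, whose product holds leader peptides of other heavy chains for receptors of natural killer cells, fell by 9.04% in Id1KO against WT (adjusted p = 0.0416) and was 9.44% higher in dKO than in Id1KO (adjusted p = 0.0479). The first call was lost in 6 of 12 fits, without WT or Tet2KO replicate 2 or 3 or Id1KO replicate 1 or 3 (adjusted p 0.0561 to 0.214). The second was lost in 9 of 12 fits and kept only without WT replicate 1, Id1KO replicate 2 or dKO replicate 2 (adjusted p where lost, 0.055 to 0.219). H2-M3, which presents formylated bacterial peptides, had 18.3, 15.9 and 19.9 CPM in Tet2KO and 14.7, 14.2 and 16.2 in dKO. It fell by 0.26 ± 0.085 on the log2 scale (adjusted p = 0.0265), with overlapping libraries, and the call was lost without Tet2KO replicate 1 or 3 or dKO replicate 1 or 2 (adjusted p 0.0705 to 0.161).

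Comparisons by the Tet2 label gave few class I calls. In Tet2KO against WT 3 of 18 were higher (H2-Q6, H2-Q7 and Nlrc5) and 0 lower, where 16.6% of all genes tested were higher and 16.2% lower, so the share is near the background. The median log2 fold change was 0.011. DESeq2 called 2 higher and 0 lower, and at an unadjusted p under 0.05 there were 3 higher and 2 lower. Within the Id1 label, 4 of 18 were higher (H2-Q6, H2-Q7, H2-T23 and Tap1) and 0 lower in dKO than in Id1KO, where 10.6% of all genes were higher and 8.7% lower. There DESeq2 called 1 higher (H2-Q7) and 0 lower, the unadjusted counts were 6 higher and 1 lower, and without dKO replicate 3 only 1 call remained. The comparisons share no library, and H2-Q6 and H2-Q7 were higher in both, 66.7% of the first list and 50.0% of the second. The share of all genes called higher in both was not counted. H2-T23 and Tap1 are also among the genes called lower in Id1KO than in WT.

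H2-Q6 (chr17:35424850-35430055, plus strand), a nonclassical heavy chain of the Qa group, had 77.0, 75.3 and 75.4 CPM in WT, 89.6, 91.9 and 89.3 under the Tet2KO label, 77.4, 78.6 and 75.0 under Id1KO and 86.1, 83.0 and 83.7 under dKO. The 6 libraries labelled Tet2KO or dKO lay above the other 6, and the WT and Id1KO libraries overlapped. H2-Q6 was 18.9% higher in Tet2KO than in WT (log2 0.25 ± 0.032, adjusted p = 5.02e-06) and 9.43% higher in dKO than in Id1KO (log2 0.13 ± 0.032, adjusted p = 0.00703). DESeq2 did not call the difference between dKO and Id1KO (adjusted p = 0.0681). H2-Q6 was also 6.62% lower in dKO than in Tet2KO (adjusted p = 0.0271). That call was lost without Tet2KO replicate 1 or 2 or dKO replicate 2 or 3 (adjusted p 0.0535 to 0.0975).

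H2-Q7 (chr17:35439155-35443773, plus strand) had 98.2, 93.4 and 96.8 CPM in WT, 104.0, 101.0 and 105.5 under the Tet2KO label, 95.3, 96.6 and 91.5 under Id1KO and 108.3, 98.1 and 109.6 under dKO. It was 0.11 higher on the log2 scale in Tet2KO than in the WT libraries (adjusted p = 0.0391) and 0.16 higher in dKO than in Id1KO (adjusted p = 0.0074). The first call was lost without WT replicate 2 or 3 or Tet2KO replicate 1 or 3 (adjusted p 0.0599 to 0.13), and the second without dKO replicate 3 (adjusted p = 0.054). H2-Q6 and H2-Q7 share 983 bases at 95.1% identity, and H2-Q7 and H2-Q5 1006 bases at 96.4%. H2-Q5 had lower values in Tet2KO than in WT, without a call (log2 -0.22 ± 0.084). Summed over H2-Q4, H2-Q5, H2-Q6 and H2-Q7, the level was 273.3 ± 3.0 CPM in WT and 292.5 ± 5.5 in Tet2KO, without overlap, and 265.5 ± 12 in Id1KO and 286.8 ± 12 in dKO, with overlap.

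Nlrc5 (chr8:94434356-94527272, plus strand), the class I coactivator, had 92.5, 96.4 and 100 CPM in WT, 108.6, 103.4 and 109.5 under the Tet2KO label, 98.3, 99.6 and 97.4 under Id1KO and 106.1, 101.4 and 103.6 under dKO. The Tet2KO and dKO libraries lay above the WT libraries. Nlrc5 was 0.15 ± 0.034 higher on the log2 scale in Tet2KO than in the WT libraries (adjusted p = 0.00148). In dKO against WT it was 0.11 higher (adjusted p = 0.0335), a call lost without WT replicate 1 or 2 or dKO replicate 1 or 3 (adjusted p 0.0684 to 0.134). In the same comparison of Tet2KO with WT the loading genes Tap1, Tap2 and Tapbp were not called.

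Against WT, the dKO libraries combined these calls. There 3 of 18 class I genes were higher (H2-Q6, H2-Q7 and Nlrc5) and 5 lower (B2m, H2-K1, Tap1, Tap2 and Tapbp), where 10.2% of all genes were higher and 8.97% lower. DESeq2 called 1 higher and 5 lower. H2-Q6 was 0.15 ± 0.032 higher on the log2 scale (adjusted p = 0.00225), and Tapbp fell by 0.19 ± 0.033 (adjusted p = 0.000322). The call of H2-Q7, 0.13 higher with overlapping libraries (adjusted p = 0.0216), was lost without WT replicate 2 or dKO replicate 1 or 3 (adjusted p 0.0795 to 0.107). Without WT replicate 2 the total of 8 fell to 5. Summed over the 29 heavy chain symbols, the level was 1992.6 ± 40 CPM in WT, 2004.3 ± 32 under the Tet2KO label, 1850.5 ± 56 under Id1KO and 1883.2 ± 95 under dKO, of which H2-K1 and H2-D1 made up the larger share. The described class I heavy chains with no call in any comparison were H2-Q4, H2-Q5 and H2-T24, and H2-K2 and H2-Q10, which stayed under 4 CPM in every library, had none either. H2-K2 is annotated as a transcribed pseudogene.

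All class II calls of Tet2KO against WT were on the higher side. In Tet2KO against WT, 5 of 10 class II genes were higher (Cd74, H2-DMa, H2-DMb1, H2-DMb2 and H2-Ob) and 0 lower, beside the 16.6% and 16.2% of all genes given above. All 10 had a positive log2 fold change, with a median of 0.18, beside -0.0028 over all genes. DESeq2 called 3 higher and 0 lower, and at an unadjusted p under 0.05 there were 6 higher and 0 lower. In dKO against Tet2KO, 5 of 10 were lower (Cd74, H2-Ab1, H2-DMa, H2-DMb1 and H2-Ob) and 0 higher, where 13.4% of all genes were lower and 13.1% higher. None of the 10 had a positive log2 fold change, and the median was -0.21. DESeq2 called 4 lower and 0 higher, the unadjusted counts were 6 lower and 0 higher, and without dKO replicate 2 the count of 5 fell to 3. These comparisons use the same Tet2KO libraries, so they are not independent.

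Cd74 (chr18:60803848-60812652, plus strand), the invariant chain that escorts class II molecules, had 33.5, 36.5 and 34.2 CPM in WT and 41.5, 44.3 and 41.7 in Tet2KO. It had 40.5, 41.9 and 38.1 CPM in Id1KO and 39.2, 35.6 and 37.6 in dKO. The Tet2KO and Id1KO libraries lay above all WT libraries, and dKO overlapped both WT and Id1KO. Cd74 was 0.29 ± 0.052 higher on the log2 scale in Tet2KO than in the WT libraries (adjusted p = 0.000222) and 0.21 ± 0.052 higher in Id1KO than in WT (adjusted p = 0.00859). It was 0.18 lower in dKO than in Tet2KO (adjusted p = 0.0148), a call lost without Tet2KO replicate 2 or dKO replicate 2 (adjusted p 0.0681 and 0.0738). The interaction was -0.39 ± 0.074 on the log2 scale (adjusted p = 0.00122): each single label went with a higher level, and the dKO level was below the sum of both differences.

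H2-Ob (chr17:34238903-34254414, plus strand), the beta chain of the restraining molecule H2-O, had 12.5, 12.2 and 13.1 CPM in WT, 15.7, 15.2 and 16.2 under the Tet2KO label, 12.9, 12 and 11.9 under Id1KO and 10, 10.5 and 12.2 under dKO. Only the Tet2KO libraries stood apart from all others. H2-Ob was 24.7% higher in Tet2KO than in WT (log2 0.32 ± 0.077, adjusted p = 0.00338) and fell by 30.5% in dKO against Tet2KO (log2 -0.53 ± 0.081, adjusted p = 6.85e-05). Its interaction was -0.49 ± 0.11 (adjusted p = 0.00641). H2-Oa, the alpha chain of the same molecule, had 5.7, 5.47 and 7.02 CPM in WT and 4.34, 4.68 and 4.68 in Id1KO. It fell by 24.6% there (log2 -0.41 ± 0.13, adjusted p = 0.0335), a call lost without WT replicate 3 or any 1 Id1KO library (adjusted p 0.0633 to 0.18).

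H2-DMa (chr17:34119541-34139101, plus strand), the alpha chain of the peptide editor H2-DM, had 51.4, 54.8 and 58.4 CPM in WT, 64.2, 59.9 and 58.9 under the Tet2KO label, 48.2, 48.5 and 45.8 under Id1KO and 50.1, 47.2 and 53.5 under dKO. Tet2KO was highest and Id1KO lowest relative to WT, with no overlap with WT in either case. H2-DMa fell by 0.28 ± 0.053 on the log2 scale in dKO against Tet2KO (adjusted p = 0.000633). It fell by 13.4% in Id1KO against WT (adjusted p = 0.0106), a call lost without WT replicate 3 or Id1KO replicate 3 (adjusted p 0.0573 and 0.0792). It was 11.1% higher in the Tet2KO libraries than in WT (adjusted p = 0.0282). The call was lost without WT replicate 1 or 2 or Tet2KO replicate 1 (adjusted p 0.0583 to 0.142). Part of its exons overlaps Brd2 on the opposite strand.

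The beta chain of H2-DM is encoded by H2-DMb1 and H2-DMb2, which share 1081 bases at 95.7% identity, so reads may be split between them. H2-DMb1 had 28.7, 31.1 and 29.4 CPM in WT, 36.0, 32.0 and 35.4 under the Tet2KO label, 24.7, 26.2 and 26.2 under Id1KO and 31.0, 27.7 and 30.5 under dKO. It was 0.21 ± 0.057 higher on the log2 scale in Tet2KO than in the WT libraries (adjusted p = 0.0074) and H2-DMb2 was 0.53 ± 0.15 higher (adjusted p = 0.00883). H2-DMb2 was low, at 3.37, 2.94 and 3.73 CPM in WT and 5.15, 5.0 and 4.42 in Tet2KO. Its adjusted p reached 0.0479 when 1 library was left out. H2-DMb1 was also lower by 13.6% in Id1KO than in WT (adjusted p = 0.0193), lower by 13.8% in dKO than in Tet2KO (adjusted p = 0.0101) and 15.6% higher in dKO than in Id1KO (adjusted p = 0.019). Those 3 calls were lost without WT replicate 2 or Id1KO replicate 1 (adjusted p 0.0955 and 0.096), without Tet2KO replicate 1 or dKO replicate 2 (0.0525 and 0.0538), and without Id1KO replicate 1 or dKO replicate 1 or 3 (0.0736 to 0.0841). The sum of both genes does not depend on the split: it was 33.1 ± 1.0 CPM in WT, 39.3 ± 2.1 under the Tet2KO label, 28.6 ± 1.4 under Id1KO and 33.5 ± 2.1 under dKO. That sum was without overlap between neighbours of the design, higher with the Tet2 label and lower with the Id1 label in each background.

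**Figure D4:**
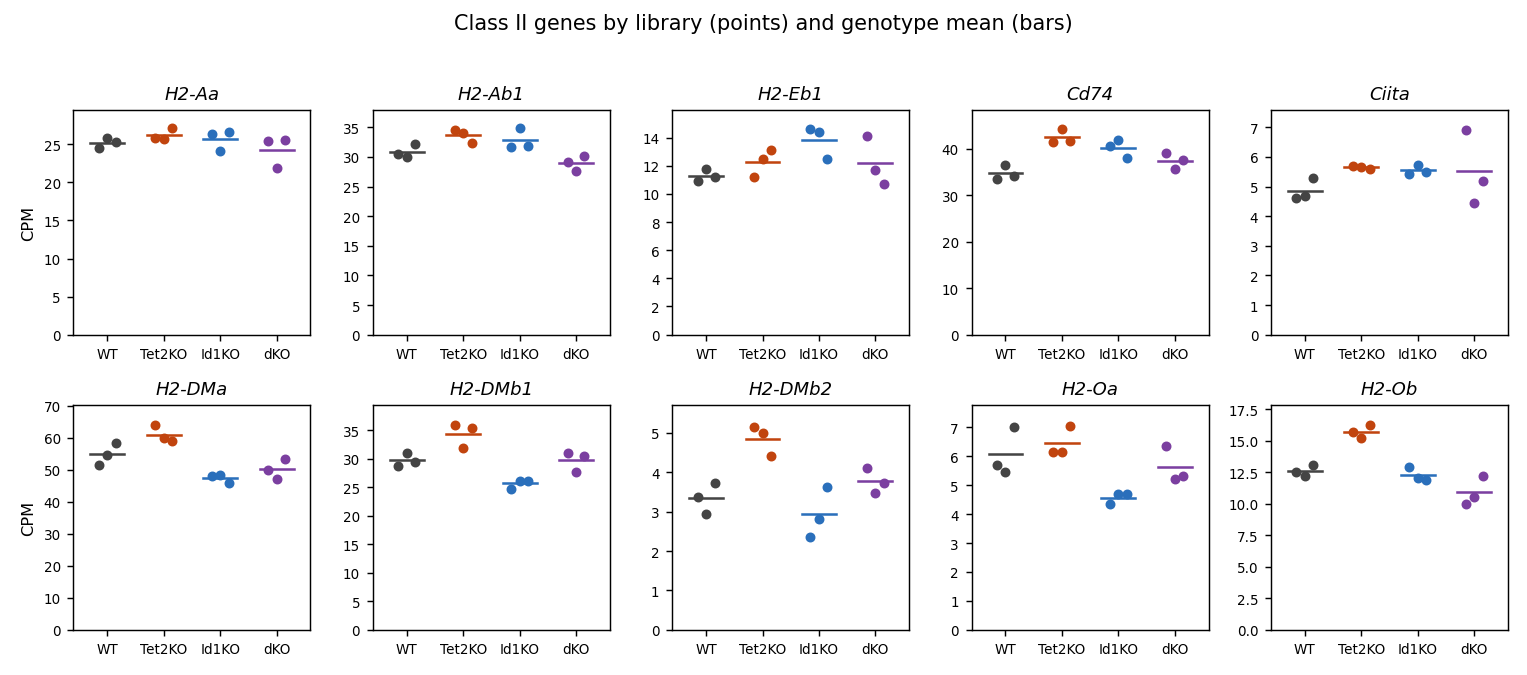
CPM of class II genes in each library, by genotype, with a bar at each mean and points for the 3 libraries. H2-Ob lies at 15.2 to 16.2 CPM in the Tet2KO libraries and at 13.1 or below in all others, and Cd74 lies above WT in both single knockout labels.

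Of the peptide-presenting chains, H2-Ab1 (chr17:34257689-34269419, plus strand) had 30.5, 29.9 and 32.1 CPM in WT, 34.5, 34.0 and 32.4 under the Tet2KO label, 31.7, 34.8 and 31.9 under Id1KO and 29.1, 27.7 and 30.1 under dKO. The dKO libraries lay below those of Tet2KO and of Id1KO, but overlapped WT. It fell by 0.22 ± 0.055 on the log2 scale in dKO against Tet2KO (adjusted p = 0.00606), and its interaction was -0.31 ± 0.076 (adjusted p = 0.00991). The fall of 11.8% in dKO against Id1KO (adjusted p = 0.0232) was lost without Id1KO replicate 2 or dKO replicate 1 or 2 (adjusted p 0.0521 to 0.114). H2-Eb1 was 22.7% higher in Id1KO than in WT (adjusted p = 0.0403). The call was lost without any 1 WT library or Id1KO replicate 1 or 2 (adjusted p 0.0569 to 0.137). H2-Aa was called in no comparison, and its log2 fold change in Tet2KO against WT was 0.055 with a 95% interval of -0.065 to 0.17.

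Ciita, the class II coactivator, was low and was called in no comparison either. It had 4.61, 4.69 and 5.3 CPM in WT and 5.7, 5.66 and 5.6 in Tet2KO. It had 5.44, 5.72 and 5.5 CPM in Id1KO and 6.91, 4.43 and 5.2 in dKO. The Tet2KO and Id1KO libraries lay above all WT libraries, and dKO overlapped WT. Its log2 fold change in Tet2KO against WT was 0.22 ± 0.14, with an interval of -0.049 to 0.48, which includes a rise as large as that of Cd74. With the chains H2-Ab1, H2-Aa, H2-Eb1 and the scarce H2-Eb2 summed, Tet2KO (72.2 ± 0.59 CPM) and Id1KO (72.5 ± 1.2) lay above WT (67.5 ± 1.4), and dKO (65.6 ± 3.6) overlapped WT. The ratio of Cd74 to that sum was 0.496 to 0.539 in WT libraries, 0.573 to 0.614 in Tet2KO, 0.536 to 0.572 in Id1KO and 0.568 to 0.578 in dKO. Tet2KO and dKO lay above all WT libraries, and Id1KO overlapped WT.

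In the remaining comparisons class II gave few calls or mixed ones. Id1KO against WT had 2 of 10 higher (Cd74 and H2-Eb1) and 3 lower (H2-DMa, H2-DMb1 and H2-Oa), beside 7.26% and 7.77% of all genes. The invariant chain and the peptide editor thus went opposite ways, and the total of 5 fell to 2 without WT replicate 3 or Id1KO replicate 1. DESeq2 called 1 higher and 1 lower there. In dKO against Id1KO there was 1 higher (H2-DMb1) and 1 lower (H2-Ab1), beside 10.6% and 8.7% of all genes. DESeq2 called neither direction, with 0 and 0. In dKO against WT edgeR called 0 of 10, where 10.2% of all genes were higher and 8.97% lower. DESeq2 called 0, and at an unadjusted p under 0.05 there were 0 higher and 2 lower. The interaction was called lower for 3 of 10, Cd74, H2-Ab1 and H2-Ob, and higher for 0, beside 7.03% and 7.46% of all genes. DESeq2 called 3 lower. H2-Ke6, the enzyme gene, was lower in dKO than in WT by 14.7% (adjusted p = 0.019), a call lost without WT replicate 2 or 3 or dKO replicate 2 (adjusted p 0.0566 to 0.0931).

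Other genes of the pathway were taken from lists set with earlier results of these data known. Of 15 further genes of class I processing and loading, 3 were lower in Id1KO than in WT and 1 higher, where 7.77% of all genes were lower and 7.26% higher. In dKO against Tet2KO 5 were lower and 2 higher, where the shares were 13.4% and 13.1%. The immunoproteasome subunit Psmb9, a neighbour of Tap1, fell by 0.24 ± 0.037 log2 units in Id1KO against WT (adjusted p = 0.000181). Its levels were 85.3 CPM in WT, 84.1 under the Tet2KO label, 72.4 under Id1KO and 75.8 under dKO. Psmb8, another such subunit of the same cluster, chosen after its values were seen, fell by 0.17 ± 0.032 in Id1KO against WT (adjusted p = 0.000977) and by 0.12 ± 0.032 in dKO against Tet2KO (adjusted p = 0.00941). The aminopeptidase Lnpep was 0.28 higher in the Tet2KO libraries than in WT (adjusted p = 5.79e-07), and the chaperone Calr fell by 0.15 in dKO against Tet2KO (adjusted p = 5.6e-05). The chaperone Hspa5 fell by 0.22 in dKO against Id1KO (adjusted p = 2.24e-06) and was 0.073 higher in dKO than in Tet2KO (adjusted p = 0.0359).

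Of 20 tested regulators of MHC genes, 7 were higher and 1 lower in Tet2KO than in WT, where 16.6% of all genes were higher and 16.2% lower. In Id1KO against WT 1 was higher and 6 lower, beside 7.26% and 7.77% of all genes. With dKO against Tet2KO 0 were higher and 7 lower (13.1% and 13.4% of all genes), and with dKO against Id1KO 6 were higher and 2 lower (10.6% and 8.7%). The repressor Bach2 was highest in Tet2KO, at 8.77 CPM beside 4.56 in WT (log2 0.94 ± 0.10, adjusted p = 8.3e-07). The interferon regulatory factor Irf8 stood at 340.6 CPM in WT, 350.1 under the Tet2KO label, 265.9 under Id1KO and 354.0 under dKO, so it was low in Id1KO (log2 -0.36 ± 0.028, adjusted p = 2.27e-08) and not in dKO. Irf2 was 0.55 higher in dKO than in Id1KO (adjusted p = 0.000106). Rfx5, part of the complex that binds the X box and chosen here after its values were seen, had 41.5 ± 0.30 CPM in WT, 41.2 ± 2.9 under the Tet2KO label, 34.3 ± 1.4 under Id1KO and 36.8 ± 0.58 under dKO. It fell by 0.27 ± 0.051 log2 units in Id1KO against WT (adjusted p = 0.000896) and by 0.16 ± 0.052 in dKO against Tet2KO (adjusted p = 0.0228). Of the same list, Rfxank and Rfxap were not called in Id1KO against WT (log2 0.14 and 0.12). Creb1 was higher there (log2 0.14 ± 0.03, adjusted p = 0.00328). In dKO against Tet2KO none of Rfxank, Rfxap and Creb1 was called. What part such factors have in the MHC values was not tested.

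Of 11 genes of class II processing, 4 were higher and 4 lower in Tet2KO than in WT (16.6% and 16.2% of all genes). In Id1KO against WT 0 were higher and 2 lower (7.26% and 7.77%), and in dKO against Tet2KO 1 was higher and 3 lower (13.1% and 13.4%). The level of Ctss, the invariant chain protease, was 0.43 above WT on the log2 scale in Tet2KO libraries (adjusted p = 6.11e-06). It was 0.21 lower in dKO than in Tet2KO (adjusted p = 0.00764). Cst3, a cathepsin inhibitor, fell by 0.16 in Id1KO against WT (adjusted p = 0.00256), and the reductase Ifi30 by 0.22 in dKO against Id1KO (adjusted p = 0.0136). Among 6 tested class I-like molecules, Fcgrt was 0.72 higher in the Tet2KO libraries than in WT (adjusted p = 0.00176), Mr1 fell by 0.43 in Id1KO against WT (adjusted p = 0.0144) and Ulbp1 by 0.27 in dKO against Tet2KO (adjusted p = 0.00066). Of 4 tested costimulation genes, Icam1 was called higher in Tet2KO and in Id1KO than in WT (log2 0.35 and 0.33).

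Summed markers of cells that carry class II were also higher in Tet2KO than in WT libraries, and their part in these results was not tested. The summed level of 11 B cell markers was 30.1 to 33.7 CPM in WT libraries, 39.8 to 41.4 in Tet2KO, 28.0 to 31.0 in Id1KO and 28.3 to 32.4 in dKO, and Blk, Cd79a, Fcrla and Ms4a1 were below 1 CPM. Cd79b made up most of that sum, at 21.1 CPM in WT and 24.9 in Tet2KO. In Tet2KO against WT 4 of 8 tested were higher, where 16.6% of all genes were, and in dKO against Tet2KO 2 were lower, where 13.4% of all genes were. The 14 dendritic cell markers summed to 185.1 to 189.2, 212.9 to 217.3, 167.9 to 181.1 and 181.1 to 189.8 CPM in the same order, with 7 below 1 CPM. Of the 9 tested, 3 were higher and 3 lower in Tet2KO than in WT, where 16.6% of all genes were higher and 16.2% lower. Flt3, also on the Kit+ progenitor list, went from 68.9 CPM in WT to 99.4 in Tet2KO and Tcf4 from 72.7 to 83.0, while Mgl2 went from 14.5 to 5.15 and Zbtb46 from 17.1 to 10.3. The 13 macrophage and monocyte markers summed to 870.4 to 908.5, 1153.3 to 1192.6, 820.9 to 838.8 and 1016.7 to 1044.7 CPM, of which C1qa, C1qb, C1qc, Fcgr1 and Mertk were below 1 CPM. Ly6c2 made up most of that sum, at 543.8 CPM in WT and 772.3 in Tet2KO, while Vcam1 went from 30.3 to 17.6. Of the 12 tested, 5 were higher and 1 lower in Tet2KO than in WT, beside the same 16.6% and 16.2%. The 12 T and natural killer cell markers had 10 below 1 CPM, and nearly all of their sum came from Nkg7.

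Interferons raise class I genes in many cells. The sum of 26 interferon response genes was 626.0 to 633.3 CPM in WT, 628.1 to 641.6 under the Tet2KO label, 580.0 to 586.8 under Id1KO and 640.4 to 649.0 under dKO. In Id1KO against WT 0 of 24 tested were higher and 5 lower (7.26% and 7.77% of all genes). In dKO against Tet2KO 4 were higher and 1 lower (13.1% and 13.4%), and in dKO against Id1KO 9 were higher and 0 lower (10.6% and 8.7%). In Id1KO against WT the loading genes and that sum were both lower, without overlap. In dKO against Tet2KO the loading genes were lower, while the ranges of that sum overlapped. What part the interferon response has in the class I values was not tested.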

How the data were processed

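Estimated counts, not normalized, were deposited for each gene in 12 libraries. Per the labels' protocols, RNA was purified with a micro kit and made into stranded total RNA libraries with ribosomal RNA depletion. STAR, RSEM and the build mm10 are named in the submitters' processing notes. Versions, annotation and the strand setting are not given in the sources used here, and 8.25% of genes have a count that is not whole. Identifiers matched GENCODE M21 (GRCm38), which gave positions and exon lengths. Promoters are from RefSeq (GRCm38.p6).

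Libraries were grouped by the genotype label. All 12 pairs within a genotype differed by more than sampling noise in a chi-square test over genes with at least 20 counts, so none were merged. Same-numbered libraries of different genotypes did not deviate together (18 correlations, -0.0972 to 0.113), so the numbers do not pair them. Counts were rounded, filtered by filterByExpr with a minimum count of 10, scaled by TMM and fitted together by edgeR's quasi-likelihood test (two-sided), with a mean for each genotype. Exact permutation was not used, since 3 against 3 libraries cannot go below 0.1. Standard errors and 95% intervals come from the fit. Members and lists were chosen with earlier results of these data known. All 48 members are accounted for. The text describes class I heavy chains with at least 5 CPM in a genotype, the partners, and the class II genes, and per pathway list the called gene with the largest change in each of 4 comparisons. Similar sequences were sought with blast at 95% identity over at least 100 bases. The steps were tested on simulated data. Alternatives were other scalings, DESeq2, other filters, only the libraries compared, a replicate block, each library left out, a threshold of 0.01 and libraries summed per genotype with additive labels. Tools were edgeR 4.0.16, DESeq2 1.42.0 and limma 3.58.1 in R 4.3.3, blast 2.17.0, and Python 3.11.15 with matplotlib 3.10.9.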

Additional observations from a re-analysis of the deposited data

Results flagged for a closer look

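For 3 class II genes the difference between libraries with and without the Id1 label itself differed between those with and without the Tet2 label, by the interaction term of edgeR's quasi-likelihood fit over all genes. The interaction log2 value was -0.39 ± 0.074 for Cd74 (adjusted p = 0.00122), -0.49 ± 0.11 for H2-Ob (adjusted p = 0.00641) and -0.31 ± 0.076 for H2-Ab1 (adjusted p = 0.00991). Each was kept in all 12 fits that left out 1 library, and 7.03% of all genes tested were called lower in this term.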

How the results depend on the processing

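Of the 51 calls of the described genes, 51 were kept with 10 counts required in every library of a genotype and with scaling without mitochondrial and small structural RNA, 50 with RLE and with upper-quartile scaling, 49 with no filter, 33 with DESeq2 and 27 at a threshold of 0.01. Of the 48 that can be compared, 45 were kept with only the libraries compared. No scaling moved the median of all genes by over 0.01 on the log2 scale. The replicate block kept 46 of 51 calls and gained 1, and the libraries share only a number. With the libraries summed to 1 per genotype and additive labels, 0 of 40 calls were kept, with 0 class I and 0 class II members called in each of the 4 comparisons that fit can give (Tet2KO or Id1KO against WT, dKO against Tet2KO or Id1KO), and Cd74 in dKO against Tet2KO reversed to 0.019. That fit has 1 residual degree of freedom.

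At the threshold of 0.01 the class I calls were 4 in Id1KO against WT, 4 in dKO against WT, 4 for dKO versus Tet2KO and 2 for dKO versus Id1KO. The class II calls were 1 in Id1KO against WT, 3 for dKO versus Tet2KO and 0 for dKO versus Id1KO. With DESeq2 there was 1 class I call in dKO against Id1KO, and class II had 3 in Tet2KO against WT, 2 in Id1KO against WT and 0 in dKO against Id1KO. With no filter there was 1 class II call in dKO against WT. Leaving out each library gave, for class I, 2 to 4 calls in Tet2KO against WT, 4 to 8 in Id1KO against WT, 5 to 8 in dKO against WT, 4 to 8 in dKO against Tet2KO, 1 to 5 in dKO against Id1KO and 0 to 1 in the interaction. For class II it gave 4 to 5, 2 to 5, 0 to 1, 3 to 5, 1 to 3 and 3 to 4 in the same order.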
